A study of Oryctolagus cuniculus with 134 samples.

Results

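The osteogenic genes RUNX2, ALPL, BGLAP, IBSP and SP7 were followed across the proximal aorta and the 4 heart valves of New Zealand White rabbits. The 5 genes were taken by their symbol, and each matched 1 row among the 29587 genes of the deposited count tables (RUNX2 is ENSOCUG00000011739, ALPL ENSOCUG00000004447, BGLAP ENSOCUG00000025958, IBSP ENSOCUG00000001046 and SP7 ENSOCUG00000003811). RNA was sequenced from the 5 tissues of 27 male rabbits, 1 library for each piece of tissue. Of the rabbits, 7 had standard chow (Ctrl), 6 were fed 0.3% cholesterol (CHT), 7 were fed 5% lard (Lard) and 7 were fed 0.3% cholesterol and also received X-rays to the heart (IR/CHT). Each gave 1 library per tissue, with 1 Ctrl mitral valve fewer. The protocol began at an age of 12 weeks and lasted 16 weeks. All CHT, Lard and IR/CHT rabbits received 25000 U of vitamin D2 per day and 2.5 kg of body weight in the drinking water for 15 days, and the Ctrl rabbits did not, so in every comparison with Ctrl the diet and the vitamin cannot be told apart. The irradiation was 24 Gy, given as 3 fractions of 8 Gy after 8 weeks. No animal with irradiation alone or with vitamin D2 alone was analysed here. By the recorded treatments, IR/CHT and CHT differ by the irradiation, and Lard and CHT by the added fat. The rabbit numbers in the library names form separate series for Ctrl, for CHT and Lard, and for IR/CHT. What the series stand for is not given, so Ctrl and IR/CHT each differ from the other groups in series as well as treatment.

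Bone is laid down by osteoblasts, whose identity is set by the transcription factor RUNX2 and, downstream of it, by SP7, also known as osterix. Osteoblasts display ALPL, the tissue-nonspecific alkaline phosphatase, which splits pyrophosphate, an inhibitor of mineral growth, and they secrete the matrix proteins IBSP, or bone sialoprotein, and BGLAP, or osteocalcin. The same genes can be switched on in calcifying arteries and valve leaflets, where smooth muscle and valve interstitial cells can take on bone-like or cartilage-like programs. RUNX2 and ALPL are also used outside bone, RUNX2 by some immune cells and ALPL by liver, kidney, endothelium and neutrophils.

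The smallest library held 13564979 counted read pairs, the median library 18235577 and the largest 50577676. Levels are given as CPM, the count of a gene relative to the library's size as scaled by the trimmed mean of M-values, and 1 CPM stands for 13.6 read pairs in the smallest library. RUNX2 and SP7 lay at low counts in many libraries. IBSP was at 0 in 63 libraries and SP7 in 105. By their labels, the aorta libraries belonged to plate 2 only, and the CHT libraries of the aortic and of the mitral valve to plate 1 only. Which step of the work a plate stands for is not given. Summed over 7 smooth muscle markers, the Ctrl aorta libraries held 84275 to 118525 CPM and the Ctrl valve libraries at most 1802. In the IR/CHT pulmonary valve the highest library held 21203 CPM, beside a group median of 1540. Over all genes that passed the filter, 20 libraries had a profile nearer to the mean of another tissue than to that of their own, by a correlation difference of over 0.01 in 6 and of over 0.03 in 1. That 1 library, labelled tricuspid valve Ctrl, correlated at 0.948 with the aortic valve mean and at 0.879 with its own tissue.

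**Figure D1:**
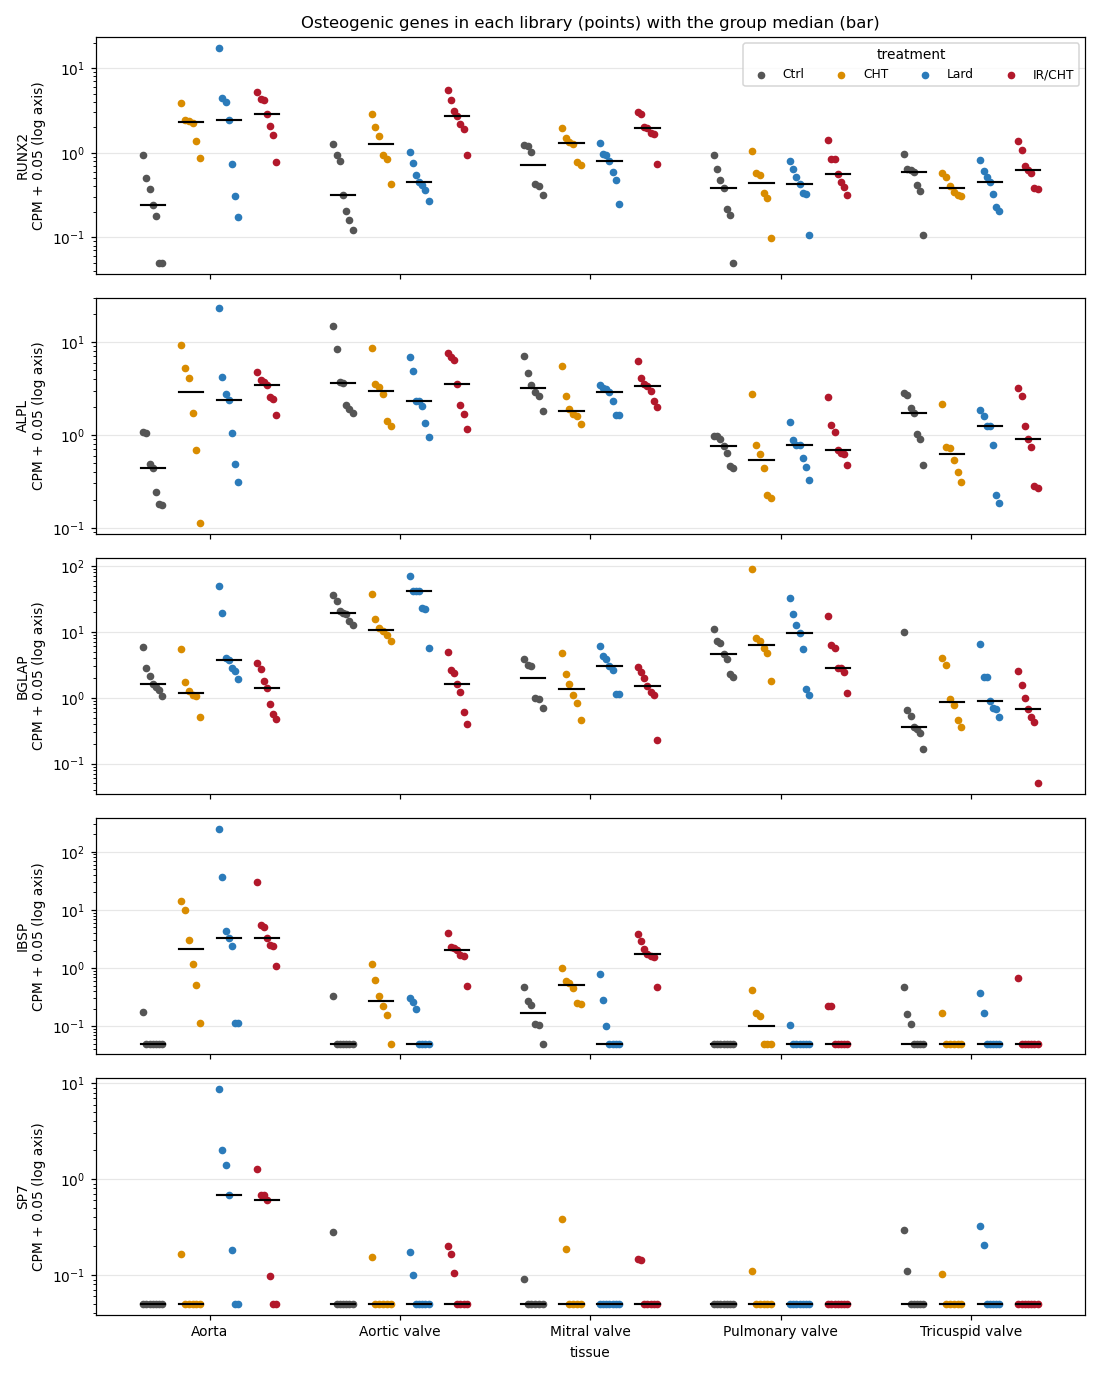
Level of each osteogenic gene in CPM (plus 0.05, log axis) for every library, by tissue and, from left to right within a tissue, by treatment, with a bar at the group median. IBSP and SP7 were near 0 in Ctrl aorta and reached 248.4 and 8.64 CPM in 1 Lard aorta library, and the IR/CHT points of BGLAP in the aortic valve lie below all of its Ctrl points.

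On chow, the tissues differed in ALPL and BGLAP, whereas no difference in RUNX2 passed the test, and IBSP and SP7 were too low to be tested. ALPL was highest in the aortic and mitral valves and lowest in the aorta, and BGLAP was highest in the aortic valve. These comparisons put 8 pairs of tissues side by side in 1 model, and a gene was called at an adjusted p under 0.05 and a fold change over 1.5.

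ALPL had a mean of 5.11 ± 4.78 CPM (SD, n = 7) in the Ctrl aortic valve, where libraries ran from 1.69 over a median of 3.57 to 14.7. It had 3.69 ± 1.89 (n = 6) in the mitral valve, from 1.74 over 3.11 to 7.04, and 1.59 ± 0.89 (n = 7) in the tricuspid valve, from 0.421 over 1.66 to 2.75. The 2 lowest tissues were the pulmonary valve, at 0.685 ± 0.231, and the aorta, at 0.469 ± 0.385 with libraries from 0.127 over 0.387 to 1.02. No aorta library reached the lowest library of the aortic or mitral valve. ALPL was lower in the aorta than in the aortic valve (by a log2 fold change of -3.42 ± 0.54, SE, adjusted p = 3.92e-06), the mitral valve (-2.96 ± 0.54, adjusted p = 4.7e-05) and the tricuspid valve (-1.74 ± 0.52, adjusted p = 0.00822), and higher in the aortic than in the pulmonary valve (2.89 ± 0.52, adjusted p = 6.48e-05). The neighbours in this order did not pass the test, with 0.46 ± 0.50 between the aortic and mitral valves, 1.21 ± 0.50 between the mitral and tricuspid valves, -1.22 ± 0.51 between the pulmonary and tricuspid valves and -0.53 ± 0.53 between the aorta and the pulmonary valve.

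BGLAP had a mean of 21.5 ± 8.13 CPM (n = 7) in the Ctrl aortic valve, from 12.8 over a median of 19.4 to 35.6. It had 5.38 ± 3.18 CPM in the pulmonary valve, 2.27 ± 1.67 in the aorta, 2.07 ± 1.39 in the mitral valve and 1.70 ± 3.59 in the tricuspid valve. No library of the aorta, mitral valve or pulmonary valve reached the lowest aortic valve library. BGLAP was higher in the aortic valve than in the mitral valve (log2 fold change 3.38 ± 0.75, adjusted p = 0.0101) and the pulmonary valve (2.01 ± 0.66, adjusted p = 0.0102), and lower in the aorta than in the aortic valve (-3.25 ± 0.70, adjusted p = 0.000268). The tricuspid mean rested on the library whose profile stood nearer to the aortic valve, which held 9.84 CPM against 0.119 to 0.611 in the other 6. With it, the pulmonary valve was higher than the tricuspid valve by 1.65 ± 0.67 without passing the test (adjusted p = 0.101). Without it the difference was 3.98, and with the rabbit as a block it was 2.60 ± 0.54 (adjusted p = 0.00137), both past the thresholds. Without the same library, ALPL was also called higher in the mitral than in the tricuspid valve (1.44, adjusted p = 0.0362).

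Of the 3 genes tested on chow, 2 were called between aorta and aortic valve, where 49.6% of all 15372 genes were called, 1 between aorta and mitral valve (31% of all genes), 1 between aorta and tricuspid valve (30.2%), 1 between aortic and mitral valve (2.75%) and 2 between aortic and pulmonary valve (48.2%). None was called by edgeR's test between aorta and pulmonary valve (37.5%), mitral and tricuspid valve (5.33%) or pulmonary and tricuspid valve (10.7%), where 0, 1 and 2 of the 3 had an unadjusted p under 0.05 and DESeq2 called 0 in each. RUNX2 had Ctrl means of 0.283 ± 0.314 CPM (aorta), 0.492 ± 0.450 (aortic valve), 0.719 ± 0.427 (mitral), 0.363 ± 0.306 (pulmonary) and 0.478 ± 0.271 (tricuspid), and none of the 8 differences passed.

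In the aorta, the osteoblast regulator RUNX2 and the phosphatase ALPL rose under all 3 treatments against Ctrl in edgeR's test, the matrix protein IBSP went from nearly 0 to measurable levels under all 3, the factor SP7 went from 0 to measurable levels on Lard and in IR/CHT but not on CHT, and BGLAP did not pass edgeR's test under any of them, while DESeq2 called it on Lard. On CHT, 3 of the 5 genes were called, all higher, where 19.4% of the 14777 genes tested were called. On Lard it was 4 of 5 where 2.61% of all genes were called, and in IR/CHT 4 of 5 where 34.3% were called. When only the Lard and Ctrl libraries were fitted, RUNX2, IBSP and SP7 fell under the filter and were not tested, and ALPL was not called (3.36, adjusted p = 0.112). These counts are descriptions, since the filter on low counts, 0.532 CPM in 6 libraries, was passed through the treated groups. In Ctrl, 0 libraries were over that limit for IBSP and SP7, 1 for RUNX2 and 2 for ALPL. Without the filter RUNX2 was called under each treatment (adjusted p = 0.0211 on CHT, 0.0223 on Lard and 0.00292 in IR/CHT), and ALPL on CHT (0.0273) and in IR/CHT (0.0173) but not on Lard (0.0608). In bulk tissue, fewer cells of a type and less RNA per cell cannot be told apart.

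RUNX2 stood between 0 and 0.889 CPM in the Ctrl aorta, with a median of 0.192. It ran from 0.809 over 2.25 to 3.86 on CHT, from 0.736 over 2.86 to 5.17 in IR/CHT, and from 0.124 over 2.42 to 17.3 on Lard. Each treated group overlapped Ctrl, CHT and IR/CHT through their lowest library alone and Lard through its 3 lowest. The means were 0.283 ± 0.314 CPM on chow, 2.15 ± 1.05 on CHT (log2 fold change 2.92 ± 0.85 SE, adjusted p = 0.0113), 2.97 ± 1.62 in IR/CHT (3.40 ± 0.84, adjusted p = 0.00148) and 4.16 ± 6.04 on Lard (3.85 ± 0.85, adjusted p = 0.0119). The Lard call was lost without its highest library, L562 (2.78, adjusted p = 0.0585).

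SP7, the osteoblast factor downstream of RUNX2, was at 0 in all 7 Ctrl aorta libraries. On CHT it was at 0 in 5 of 6, with 2 read pairs in the other. On Lard it was at 0 in 2 of 7 libraries and ran up to 8.64 CPM with a median of 0.636, and in IR/CHT it was at 0 in 2 of 7 and ran up to 1.22 with a median of 0.552. Set against a floor of 3 read pairs per Ctrl library, the mean was at least 9.34-fold higher on Lard (adjusted p = 0.0265 in the fit without the filter) and at least 2.26-fold higher in IR/CHT (0.0164 in that fit). The Lard mean against the same floor on CHT was at least 10.5-fold higher (0.0212 in that fit). Without the highest library, L562 on Lard and L567 in IR/CHT, these bounds were 3.48, 1.60 and 3.90.

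ALPL ran from 0.127 over a median of 0.387 to 1.02 CPM in the Ctrl aorta. It ran from 1.60 over 3.38 to 4.69 in IR/CHT, with no overlap with Ctrl. On CHT it ran from 0.0622 over 2.88 to 9.22 and on Lard from 0.258 over 2.36 to 23.1, both overlapping Ctrl. The means were 3.14 ± 1.05 CPM in IR/CHT (log2 fold change 2.78 ± 0.85, adjusted p = 0.00844), 3.47 ± 3.44 on CHT (2.91 ± 0.87, adjusted p = 0.0135) and 4.85 ± 8.15 on Lard (3.37 ± 0.87, adjusted p = 0.0311). The call on CHT was lost without the library with the highest ALPL, L574 (2.33, adjusted p = 0.0574), and that on Lard without each of 7 of the 14 libraries, the highest, L562, among them (1.955, adjusted p = 0.229). The treated aorta came to means within the range of the Ctrl aortic and mitral valve libraries.

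IBSP, a matrix protein that binds hydroxyapatite, was at 0 in 6 of 7 Ctrl aorta libraries and had 2 read pairs in the other. It ran from 0.0622 over 2.07 to 14.3 CPM on CHT, from 0.0622 over 3.30 to 248.4 on Lard and from 1.04 over 3.27 to 30.4 in IR/CHT. All IR/CHT libraries lay above all Ctrl libraries, while 1 CHT and 2 Lard libraries had 3 read pairs or fewer. Against 3 read pairs per Ctrl library, the mean was at least 24.7-fold higher on CHT (adjusted p = 0.0228 in the fit without the filter), at least 36.7-fold higher in IR/CHT (0.00572 in that fit) and at least 217-fold higher on Lard (0.0139 in that fit). Without the highest library of each (L572, L567 and L562) the bounds were 14.9, 16.8 and 40.0.

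BGLAP, a secreted vitamin K-dependent protein of mature osteoblasts, was present in every Ctrl aorta library, from 1.01 over a median of 1.56 to 5.82 CPM. It ran from 0.459 over 1.14 to 5.42 on CHT (log2 fold change -0.31 ± 0.72, adjusted p = 0.789) and from 0.430 over 1.34 to 3.27 in IR/CHT (-0.53 ± 0.70, adjusted p = 0.546). On Lard it ran from 1.87 over 3.67 to 49.5, with a mean of 11.9 ± 17.7 against 2.27 ± 1.67 on chow (2.40 ± 0.70, adjusted p = 0.0650). DESeq2 called it (2.42 ± 0.64, adjusted p = 0.00777), as did edgeR's test without each of 4 single libraries. Against CHT, BGLAP was higher on Lard (2.71 ± 0.76, adjusted p = 0.0172), with overlapping libraries, and was not called without L562 (1.64, adjusted p = 0.1002).

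Between Lard and CHT in the aorta, 2 of the 5 genes were called, BGLAP and SP7, both higher on Lard, where 9.35% of all genes were called, and when only these 2 groups were fitted BGLAP was not called (2.72, adjusted p = 0.0644) and SP7 fell under the filter and was not tested. IBSP had a log2 difference of 3.11 ± 1.23 without passing (adjusted p = 0.106), which was 0.68 without the highest Lard library. RUNX2 (0.93 ± 0.75) and ALPL (0.46 ± 0.78) did not pass. Between IR/CHT and CHT, edgeR's test called 0 of the 5, where 0.596% of all genes were called, 1 of the 5, SP7, had an unadjusted p under 0.05 and DESeq2 called 0. The differences were 0.49 ± 0.75 for RUNX2, -0.13 ± 0.78 for ALPL, -0.22 ± 0.73 for BGLAP and 0.58 ± 1.15 for IBSP.

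The Lard aorta libraries differed strongly among themselves. The library named L562 was the highest of the 7 for each of the 5 genes, with 17.3 CPM of RUNX2, 23.1 of ALPL, 49.5 of BGLAP, 248.4 of IBSP and 8.64 of SP7. The 2 libraries with the lowest RUNX2, at 0.258 and 0.124 CPM, were also the 2 lowest for ALPL, IBSP and SP7, with ALPL at 0.258 and 0.435 CPM, IBSP at 1 read pair each and SP7 at 0. SPP1, or osteopontin, another matrix protein of bone that macrophages also make, ran in these 3 libraries at 1144, 48.2 and 27.6 CPM. In IR/CHT the library L567 was the highest of its 7 for RUNX2, ALPL, IBSP and SP7 and the fourth for BGLAP. The CHT library with the highest BGLAP, L561, was the third of 6 for RUNX2 and for ALPL.

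**Figure D2:**
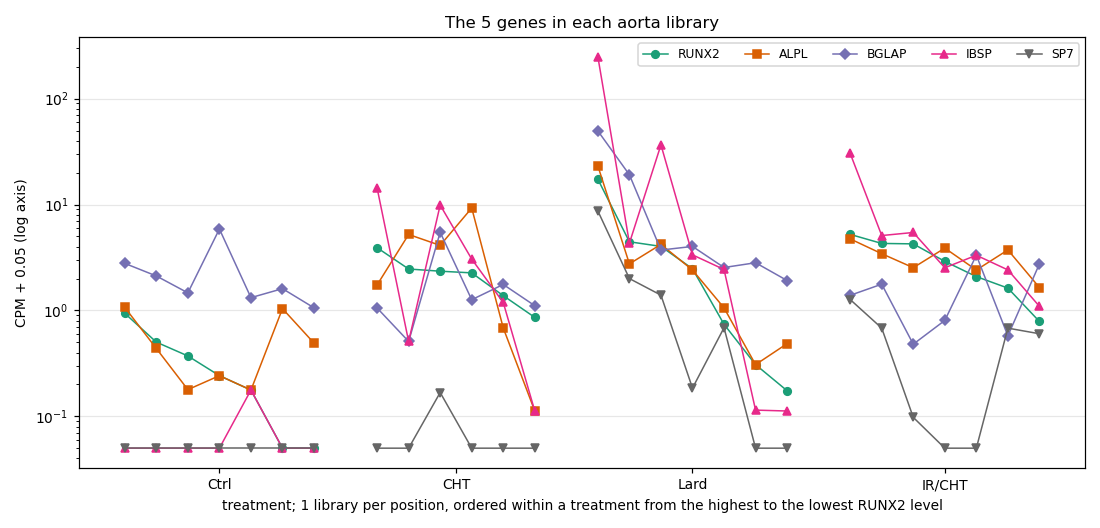
Levels of the 5 genes in CPM (plus 0.05, log axis) in each of the 27 aorta libraries, 1 library per position, ordered within a treatment by RUNX2. On Lard the lines fall together from 1 library with 248.4 CPM of IBSP to 2 libraries with 1 read pair each, and BGLAP in CHT and IR/CHT lies between 0.430 and 5.42 CPM.

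Without L562, the Lard means were 1.98 ± 1.90 CPM for RUNX2, 1.82 ± 1.52 for ALPL, 5.63 ± 6.61 for BGLAP, 7.77 ± 14.2 for IBSP and 0.677 ± 0.809 for SP7 (n = 6). IBSP was then at least 40.0-fold and SP7 at least 3.48-fold higher than the Ctrl floor. None of the other 3 genes was called against Ctrl by edgeR's test. RUNX2 had 2.78 on the log2 scale (adjusted p = 0.0585), ALPL 1.955 (adjusted p = 0.229) and BGLAP 1.33 (adjusted p = 0.364). BGLAP against CHT was 1.64 (adjusted p = 0.1002). The other 4 tissues of the rabbit of L562 were not high in the same genes, with 0 CPM of IBSP in its aortic valve and 22.7 CPM of BGLAP there, inside the Lard range.

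In the aortic valve in IR/CHT, RUNX2 and IBSP rose and BGLAP fell, and ALPL did not pass the test. On CHT edgeR's test called IBSP and DESeq2 called RUNX2 and IBSP among the 4 genes tested, and on Lard neither called any. The IBSP call on CHT was lost under most alternatives. SP7 was not tested in any valve, where its highest count was 14 read pairs in 1 library of the mitral valve.

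BGLAP ran from 12.8 over a median of 19.4 to 35.6 CPM in the Ctrl aortic valve. It ran from 7.24 over 10.8 to 37.2 on CHT, from 5.69 over 40.9 to 70.5 on Lard and from 0.349 over 1.55 to 4.86 in IR/CHT. Every IR/CHT library lay below every Ctrl, CHT and Lard library. The mean of 1.93 ± 1.55 CPM in IR/CHT was 11.2-fold lower in the fit than the Ctrl mean of 21.5 ± 8.13 (log2 fold change -3.49 ± 0.52, adjusted p = 4.35e-06) and 7.90-fold lower than the CHT mean of 15.0 ± 11.2 (-2.98 ± 0.52, adjusted p = 0.000186). Within plate 1 and within plate 2 the fall against Ctrl was -3.98 ± 0.63 (adjusted p = 0.000228) and -3.01 ± 0.83 (adjusted p = 0.0230), and within plate 1 the fall against CHT was -3.45 ± 0.58 (adjusted p = 0.00120). CHT against Ctrl (-0.51 ± 0.49) and Lard against Ctrl (0.70 ± 0.47, mean 34.9 ± 20.6) did not pass.

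In the rabbit annotation of RefSeq (assembly mOryCun1.1), BGLAP overlaps PAQR6 and neighbours PMF1, and the counting used the default settings of the pipeline, so that reads of BGLAP and PAQR6 may not be told apart.

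RUNX2 ran from 0.0735 over a median of 0.263 to 1.21 CPM in the Ctrl aortic valve and from 0.902 over 2.70 to 5.53 in IR/CHT. The mean rose from 0.492 ± 0.450 to 2.92 ± 1.54 (log2 fold change 2.52 ± 0.55, adjusted p = 0.000419), and 6 of 7 IR/CHT libraries lay above all Ctrl libraries. Within plate 2 the rise was 3.35 ± 0.74 (adjusted p = 0.00738), and within plate 1 it was 1.76 ± 0.77 and did not pass (adjusted p = 0.0877). On CHT the mean was 1.39 ± 0.89 (1.46 ± 0.55, adjusted p = 0.0768), which DESeq2 called (1.43 ± 0.54, adjusted p = 0.0467), as did edgeR's test without 1 Ctrl library, L198 (1.84, adjusted p = 0.0327). On Lard it was 0.497 ± 0.261 (0.02 ± 0.54).

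IBSP was at 0 in 6 of 7 Ctrl aortic valve libraries and at 6 read pairs in the other. It ran from 0 over a median of 0.224 to 1.14 CPM on CHT, from 0 over 0 to 0.252 on Lard and from 0.436 over 2.00 to 3.95 in IR/CHT. All IR/CHT libraries lay above all Ctrl libraries. IBSP passed the filter through 6 IR/CHT and 2 CHT libraries and 0 of the others, so its fitted values are descriptions. The difference in IR/CHT was 5.25 ± 0.99 on the log2 scale (adjusted p = 0.000107 in the fit without the filter), 4.16 ± 1.47 within plate 1 and 8.14 ± 1.4 within plate 2, and without the 1 Ctrl library that held reads it was 8.36, so its size rests on 6 read pairs. IR/CHT against CHT was 2.31 ± 0.83 (adjusted p = 0.0444, and 0.0727 without the filter). The call on CHT (2.94 ± 0.99, adjusted p = 0.0483) was lost without the filter (adjusted p = 0.0672), within plate 1 (1.84 ± 1.35, adjusted p = 0.426), with the plate as a covariate (adjusted p = 0.123) and without each of 8 single libraries. The IR/CHT to CHT call was lost within plate 1 (2.32 ± 0.99, adjusted p = 0.117) and without each of 10.

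ALPL stayed within overlapping ranges in the aortic valve, with 5.11 ± 4.78 CPM on chow, 3.42 ± 2.71 on CHT, 2.92 ± 2.14 on Lard and 4.15 ± 2.71 in IR/CHT. The log2 differences from Ctrl were -0.56 ± 0.58, -0.80 ± 0.56 and -0.30 ± 0.55, none past the test. Of the 4 genes tested, 1 was called on CHT, where 11.9% of the 15408 genes were called. In IR/CHT it was 3 where 42.8% were called, and between IR/CHT and CHT 2 where 19.7% were called. Each of these counts includes IBSP, which passed the filter through CHT and IR/CHT libraries alone, so they are descriptions. Without the filter the count was 0 on CHT and 1 between IR/CHT and CHT. edgeR's test called 0 between Lard and Ctrl, where 0.234% of all genes were called, no gene had an unadjusted p under 0.05 and DESeq2 called 0. It called 0 between Lard and CHT, where 7.94% of all genes were called. There, 3 of the 4 had an unadjusted p under 0.05 and DESeq2 called 0 (RUNX2 -1.44 ± 0.54, BGLAP 1.21 ± 0.50, IBSP -1.95 ± 0.88), and BGLAP was called without 1 CHT library, L228 (1.73, adjusted p = 0.0259).

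In the mitral valve, RUNX2 and IBSP rose in IR/CHT, and no other change was called by edgeR's test. Markers of other cells moved with them there, and their part was not tested. Macrophage sums ran from 239.9 to 707 CPM on chow and from 943 to 1796 in IR/CHT. Osteoclast sums ran from 107.3 to 169.3 and from 420.7 to 1067, and T cell sums from 1.37 to 3.22 and from 7.13 to 26.2. None of these overlapped. The osteoclast sum held 7 of 12 listed genes, and TNFSF11, CALCR and OCSTAMP had at most 3 read pairs in every IR/CHT library. The T cell sum held 6 of 10, since CD3D, CD3E, CD3G and CD247 were not found by symbol. RUNX2 ran from 0.271 over a median of 0.676 to 1.17 CPM on chow and from 0.687 over 1.90 to 3.00 in IR/CHT, with 6 of 7 IR/CHT libraries above all Ctrl libraries. Its mean rose from 0.719 ± 0.427 (n = 6) to 1.95 ± 0.79 (n = 7, log2 fold change 1.397 ± 0.42, adjusted p = 0.0146). Within plate 1 (1.12 ± 0.50, adjusted p = 0.152) and plate 2 (1.67 ± 0.80, adjusted p = 0.216) it did not pass. IBSP ran from 0 over 0.118 to 0.422 CPM on chow and from 0.423 over 1.71 to 3.84 in IR/CHT, with all IR/CHT libraries above all Ctrl libraries (3.57 ± 0.82, adjusted p = 0.00218 in the fit without the filter, which 0 Ctrl libraries helped it to pass). Within plate 1 the difference was 3.35 ± 0.88, and within plate 2 it did not pass (4.76 ± 1.77, adjusted p = 0.126).

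BGLAP, which fell in the irradiated aortic valve, had 2.07 ± 1.39 CPM on chow and 1.59 ± 0.92 in IR/CHT in the mitral valve (-0.41 ± 0.55), and ALPL had 3.69 ± 1.89 and 3.45 ± 1.38 (-0.13 ± 0.35). In the mitral valve, 2 of the 4 genes tested were called in IR/CHT, where 17.7% of the 15322 genes were called. This count includes IBSP, which passed the filter through 0 Ctrl, 3 CHT, 1 Lard and 6 IR/CHT libraries, so it is a description. edgeR's test called 0 of the 4 on CHT (5.62% of all genes), on Lard (0%), between IR/CHT and CHT (0.189%) and between Lard and CHT (6.05%). In these, 0, 0, 1 and 1 of the 4 had an unadjusted p under 0.05, IBSP both times (2.01 ± 0.73 and -1.67 ± 0.79), and DESeq2 called 0 in each. Without 1 Lard library, L540, the second passed (-3.16, adjusted p = 0.0154). On Lard, 253 of all genes had an unadjusted p under 0.05 and DESeq2 called 0 genes.

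In the pulmonary and tricuspid valves, none of the 3 genes tested was called in any of the 5 comparisons. IBSP and SP7 were not tested there, with at most 11 read pairs of IBSP and 5 of SP7 in a library. RUNX2 means lay between 0.363 and 0.679 CPM, and ALPL means between 0.685 and 1.59 CPM, in the 8 groups of these valves. BGLAP means ran from 0.915 ± 0.849 CPM in the tricuspid valve in IR/CHT to 19.8 ± 35.1 in the pulmonary valve on CHT. The latter rested on the library named L230, which held 91.2 CPM against 1.73 to 8.12 in the other 5 (mean 5.47 ± 2.46 without it).

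BGLAP on CHT against Ctrl in the pulmonary valve was 1.80 ± 0.81 on the log2 scale (adjusted p = 0.464), 0.0018 without L230, and -0.30 ± 0.52 within plate 1, which does not hold L230. IR/CHT against CHT was -1.78 ± 0.82 (adjusted p = 0.184), and 0.0033 without L230. L230 was also the highest of its 6 for RUNX2 (1.01 CPM), ALPL (2.71 CPM) and IBSP (0.371 CPM, 7 read pairs), SP7 was at 0 in it, and SPP1 was at 180 CPM against 33.5 to 85.4 in the other 5.

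In the pulmonary valve, edgeR's test called 0.159% of the 14450 genes on CHT, 0% on Lard, 0.706% in IR/CHT, 0.0761% between IR/CHT and CHT and 0.152% between Lard and CHT. In the tricuspid valve it called 0.163% of 14700 genes, 0%, 0.231%, 0% and 0.0884%. The 0 members called in these 10 comparisons stood beside 1 member with an unadjusted p under 0.05 on CHT and 1 between IR/CHT and CHT in the pulmonary valve, BGLAP both times, and 0 in the rest, and DESeq2 called 0 members in each. Where no gene was called at all, 360 genes on Lard in the pulmonary valve, 1200 on Lard and 1323 between IR/CHT and CHT in the tricuspid valve had an unadjusted p under 0.05, and DESeq2 called 1, 0 and 4 genes.

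**Figure D3:**
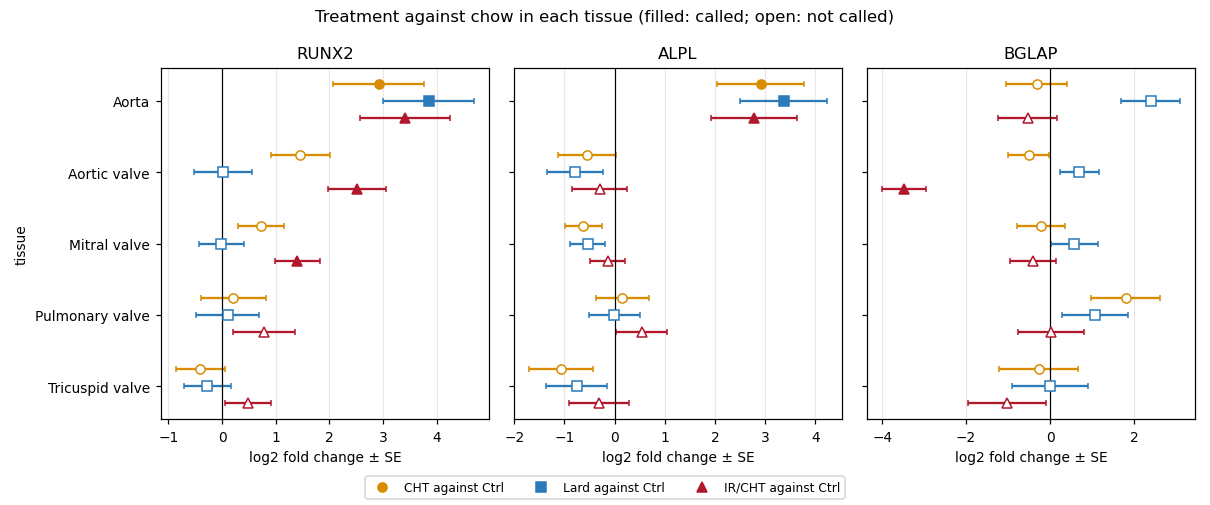
log2 fold change with its SE of RUNX2, ALPL and BGLAP against Ctrl for each tissue and treatment, with filled symbols for calls. For ALPL the aorta lies at 2.78 to 3.37 against at most 0.54 in any valve, a difference tested for the aortic valve alone. With the rabbit as a block that difference held in IR/CHT and was lost on CHT and on Lard. For BGLAP the aortic valve in IR/CHT is apart, at -3.49.

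The difference between tissues in the response was tested directly, as the change in the aortic valve minus that in the aorta or in the mitral valve. ALPL changed less in the aortic valve than in the aorta under each treatment, by -3.53 ± 1.06 on CHT (adjusted p = 0.0391), -4.22 ± 1.03 on Lard (adjusted p = 0.0168) and -3.25 ± 1.02 in IR/CHT (adjusted p = 0.0127). The call on CHT, whose aortic valves were all on plate 1 and aortas all on plate 2, was lost with the plate as a covariate (-3.55 ± 1.09, adjusted p = 0.0638) and without the filter (-3.46 ± 1.06, adjusted p = 0.0708). RUNX2 differed on Lard (-3.85 ± 1.003, adjusted p = 0.0259), whereas on CHT (-1.50 ± 1.01) and in IR/CHT (-1.01 ± 0.97) its differences did not pass. BGLAP differed in IR/CHT, by -3.11 ± 0.88 from the aorta (adjusted p = 0.00592) and by -3.15 ± 0.76 from the mitral valve (adjusted p = 0.00373).

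The median of all genes in the aortic valve minus aorta fits was -0.13 on CHT, -0.15 on Lard and -0.29 in IR/CHT, so each value is to be read against that shift. Of the 5 genes, 1, 2 and 2 were called in these 3 fits, where 5.3%, 2.33% and 32.8% of the 16125 genes tested were called. DESeq2 called 1, 3 and 2, with IBSP on Lard besides (-9.92 ± 1.961, adjusted p = 0.00014). In edgeR's test the Lard differences of IBSP (-9.70 ± 3.41, adjusted p = 0.108), SP7 (-8.38 ± 2.64, adjusted p = 0.0779) and BGLAP (-1.76 ± 0.84, adjusted p = 0.222) did not pass, and the size of the first 2 depends on groups at or near 0. Without L562, the Lard differences of RUNX2 and ALPL were -2.78 (adjusted p = 0.126) and -2.81 (adjusted p = 0.123). With the rabbit as a block, RUNX2 on Lard was -2.90 ± 0.98 (adjusted p = 0.104), ALPL on Lard -2.79 ± 1.004 (adjusted p = 0.121) and ALPL on CHT -2.79 ± 0.9999 (adjusted p = 0.0820), so that these calls were lost, while those of ALPL and BGLAP in IR/CHT held. Between the aortic and mitral valves, 1 of 4 genes was called in IR/CHT, where 15.7% of the 16166 genes were called. There, edgeR's test called 0 of 4 on CHT and on Lard, where 0% of all genes were called, no member had an unadjusted p under 0.05 and DESeq2 called 0 members. Of all genes, 1816 and 874 had an unadjusted p under 0.05 in these 2 fits, and DESeq2 called 75 and 1.

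Lists of genes of bone formation were also read by their counts in the same fits. Some lists hold members, such as BGLAP among the bone matrix genes and ALPL among those of phosphate handling. Their counts thus partly repeat the results above. Of 11 osteoblast transcription factors tested in the aorta, 4 were called higher and 1 lower on CHT, 4 and 0 on Lard and 6 and 1 in IR/CHT, RUNX2 and, where called, SP7 included. Of all 14777 genes tested there, 2098 were called higher and 765 lower on CHT, 380 and 6 on Lard and 3274 and 1796 in IR/CHT (19.4%, 2.61% and 34.3% in either direction), and the counts of each list in the aorta are to be read against these. RUNX1, the blood-cell relative of RUNX2, rose by 4.57 ± 0.64 on CHT, 3.57 ± 0.61 on Lard and 4.94 ± 0.64 in IR/CHT on the log2 scale, and LEF1, which carries Wnt signals to the genome, by 3.56 ± 0.62, 2.65 ± 0.60 and 4.40 ± 0.62. The median of the list was 0.13, 1.14 and 0.72, beside -0.04, 0.01 and 0.00 over all genes tested. MSX2, a homeobox factor of calcifying vessels, was called in IR/CHT alone (0.72 ± 0.27, adjusted p = 0.0262).

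Of 11 bone matrix genes tested in the aorta, 5 were called higher on CHT, 3 on Lard and 6 in IR/CHT, where SPARC was called lower, beside 19.4%, 2.61% and 34.3% of all genes called. SPP1 went from 55.9 ± 23.8 CPM on chow to 561.5 ± 255 on CHT, 494 ± 461 on Lard and 789 ± 257.5 in IR/CHT (log2 fold change 3.35 ± 0.61, 3.15 ± 0.60 and 3.86 ± 0.62). POSTN, a matrix protein of valves and healing tissue, rose by 0.93 ± 0.32, 1.17 ± 0.31 and 1.90 ± 0.31. COL1A1, the main collagen chain of bone, was called in IR/CHT (2.18 ± 0.50, adjusted p = 0.000832), and had 1.31 ± 0.51 on CHT and 0.90 ± 0.49 on Lard.

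In the aortic valve the same lists had calls in both directions in IR/CHT, where 3251 of all 15408 genes were called higher and 3336 lower, 42.8% in all. There, 2 of 8 osteoblast factors were called higher (RUNX2 and RUNX1, at 1.89 ± 0.24) and 4 lower, among them ZBTB16 (-1.98 ± 0.33) and LEF1 (-1.03 ± 0.21). Of 11 bone matrix genes, 4 were called higher and 2, BGLAP and SPARC (-1.10 ± 0.23), lower. SPP1 rose by 4.17 ± 0.43, from 64.6 ± 21.8 to 1173 ± 443 CPM, and on CHT by 4.15 ± 0.43. On Lard, 0 genes of either list were called in the aortic or mitral valve, with SPP1 at 1.35 ± 0.38 in the aortic valve (adjusted p = 0.224).

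Of 9 genes of phosphate and pyrophosphate handling tested in the aorta, 2 were called higher on CHT and 1 on Lard, and 1 higher and 2 lower in IR/CHT, shares near those of all genes on CHT (19.4%) and in IR/CHT (34.3%). In the aorta, ALPL was called under each treatment, SLC20A1, a phosphate importer, was called on CHT (0.60 ± 0.16), and ENPP1, which makes pyrophosphate, fell in IR/CHT (-0.83 ± 0.14), as did NT5E (-1.13 ± 0.17), which makes adenosine. In the aortic valve in IR/CHT, SLC20A1 (0.86 ± 0.12) and ANKH, the pyrophosphate exporter (0.89 ± 0.15), rose and NT5E fell (-1.59 ± 0.29). Of all genes there, 42.8% were called in either direction. Of 7 genes that restrain calcification, 1 was called higher in the aorta on CHT, TNFRSF11B, the decoy receptor that blocks osteoclast formation (0.74 ± 0.20), and 2 lower in IR/CHT, FBLN5 (-1.37 ± 0.23) and KL (-1.66 ± 0.32). MGP, the matrix protein that binds mineral and BMPs, passed in none of the comparisons of aorta or aortic valve, with 0.95 ± 0.32 on Lard in the aortic valve (adjusted p = 0.352).

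Of the BMP genes, which signal upstream of RUNX2 in bone, 2 of 16 were called in the aorta on CHT, BMP6 (4.61 ± 0.63) and BMP5 (2.75 ± 0.44), none on Lard, and 4 higher and 4 lower in IR/CHT. In the irradiated aortic valve, 8 of 15 were called lower, beside 3336 of all 15408 genes, among them BMP2 (-2.24 ± 0.32) and its receptor BMPR1A (-1.17 ± 0.17), and 1 higher, the inhibitor SOSTDC1 (2.51 ± 0.47). Of 11 Wnt genes there, 6 were called lower, among them the ligand WNT5A (-2.57 ± 0.25) and the feedback gene AXIN2 (-1.90 ± 0.32), and 2 higher, the secreted inhibitors SFRP2 (2.35 ± 0.43) and DKK1 (2.03 ± 0.62).

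Of 13 cartilage genes tested in the aorta on Lard, 6 were called, all higher, where 2.61% of all genes were called, among them COL11A1 (6.59 ± 1.05) and ACAN, the main proteoglycan of cartilage (3.43 ± 0.67), and in L562 COL2A1 stood at 333 CPM and ACAN at 231.6 CPM, whereas the highest level among the other Lard libraries was 730.5 CPM for COL2A1 and 443.5 for ACAN. Summed over the 15 cartilage genes found, the aorta ran from 387.1 to 520.4 CPM on chow and from 514 to 2014 on Lard. It ran from 472 to 738.2 on CHT and from 560.7 to 1112 in IR/CHT, which alone lay wholly above Ctrl. In the irradiated aortic valve, 8 of 12 cartilage genes were called lower and 1 higher, MATN1 (3.91 ± 0.24). Of all genes there, 42.8% were called in either direction. Among the lower were SOX5 (-2.12 ± 0.21) and SOX9 (-1.89 ± 0.33), the regulators of chondrocytes.

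**Figure D4:**
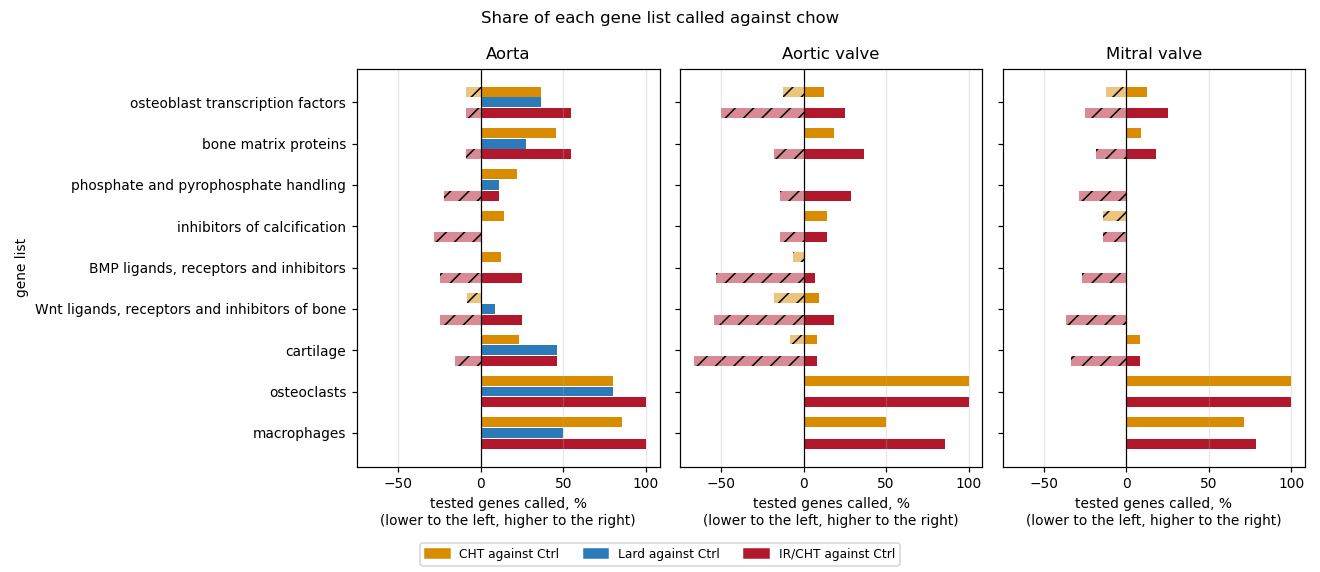
Percent of the tested genes of each list called against Ctrl, higher to the right and lower to the left (hatched), for aorta, mitral and aortic valve. Osteoclast and macrophage lists had calls higher on CHT and in IR/CHT in all 3 tissues. On Lard they had them in the aorta (2.61% of all genes called) and not in the aortic (0.234%) or mitral valve (0%). Differences between tissues were not tested for lists. The bone, BMP, Wnt and cartilage lists were called in both directions in the irradiated aortic valve.

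Markers of other cells moved with these genes. Of 14 macrophage markers tested, 12 were called higher in the aorta on CHT, 7 on Lard and 14 in IR/CHT, and in the aortic valve 7, 0 and 12, where 1297, 4 and 3251 of all 15408 genes were called higher. Their summed level ran from 76.0 to 319 CPM in Ctrl aorta, from 532 to 1298 on CHT, from 205 to 518 on Lard and from 768 to 2707 in IR/CHT. In the aortic valve it ran from 212 to 654 on chow, from 886 to 1303 on CHT, from 143 to 773 on Lard and from 2381 to 2981 in IR/CHT. The part of macrophages in these results was not tested.

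Of the 5 osteoclast markers tested in the aorta, 4 were called higher on CHT, 4 on Lard and 5 in IR/CHT, and of 4 in the aortic valve 4, 0 and 4, beside the same 1297, 4 and 3251 of all 15408 genes. MMP9, a gelatinase of osteoclasts and macrophages, rose in the aorta by 6.01 ± 1.398, 7.51 ± 1.402 and 7.02 ± 1.39, and TNFSF11, or RANKL, the osteoclast factor that osteoblasts and T cells make, was called on Lard (5.62 ± 1.23) and in IR/CHT (4.05 ± 1.24). CALCR, the calcitonin receptor that marks mature osteoclasts, had at most 3 read pairs in any library of Ctrl and IR/CHT aorta and of every aortic valve group, and more than 3 in at least 1 library of CHT and of Lard aorta. The sum of the 6 T cell markers found ran in the aortic valve from 0.783 to 5.07 CPM on chow, from 6.35 to 17.2 on CHT, from 0.185 to 4.20 on Lard and from 23.2 to 54.1 in IR/CHT. For the aorta it was 0.254 to 4.45 on chow, 9.09 to 14.4 on CHT, 0.451 to 5.15 on Lard and 7.73 to 29.0 in IR/CHT, so that CHT and IR/CHT did not overlap Ctrl in either tissue. Their part in the results was not tested.

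Of 7 smooth muscle markers in the aorta, 3 were called lower on CHT, 0 on Lard and 6 in IR/CHT, where 765, 6 and 1796 of all 14777 genes were, and the sum ran from 32771 to 83975 CPM on CHT, from 54404 to 108416 on Lard and from 11952 to 62961 in IR/CHT. Of 8 endothelial markers there, 7 were called higher on CHT, 1 on Lard and 7 in IR/CHT, with sums of 117 to 226 CPM on chow, 195.6 to 992.5 on CHT, 229.1 to 564.6 on Lard and 257.5 to 1141 in IR/CHT, so that Lard and IR/CHT lay wholly above Ctrl. Of 10 heart muscle markers in the aortic valve, 9 were called lower on CHT, 7 on Lard and 9 in IR/CHT, where 536, 32 and 3336 of all 15408 genes were, with sums of 193.5 to 12894 CPM on chow and 30.1 to 265.2 in IR/CHT. Of 8 markers of fibroblasts and valve interstitial cells, 1 was called higher and 4 lower in the aortic valve in IR/CHT, with sums of 16984 to 28792 CPM on chow and 27423 to 43027 in IR/CHT. Adipocyte sums (5 markers found) in the aortic valve ran from 11.5 to 86.4 CPM on chow and from 119 to 1091 in IR/CHT, without overlap. The adipocyte marker LEP was at 0 in every IR/CHT library there, and PLIN1, FABP4 and PNPLA2 were not found by symbol. Adipocyte and neutrophil (8 found) sums overlapped between Ctrl and each treatment in the aorta, with 1 Lard library at 34.2 CPM of neutrophil genes against at most 2.39 on chow. These shifts were not tested as sources of the changes.

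The genes most like each member were read from Pearson correlations of log2 CPM over all libraries, among 11250 genes with a symbol. These points share rabbits, plates and tissue differences, so the values are a description. RUNX2 was most like IBSP (r = 0.766), FLT3, a receptor of blood progenitors and dendritic cells (0.746), and RGS1, a signalling brake of lymphocytes (0.733). IBSP was most like MMP9 (0.822), MMP1 (0.804) and PADI2 (0.774). SP7 was most like MMP13, a collagenase of bone and cartilage (0.713), TNFSF11 (0.707) and COL9A1 (0.661). ALPL was most like SPRY4 (0.768), SCARA3 (0.767) and MYO18A (0.762). BGLAP was most like PRRX1, a factor of limb and mesenchymal cells (0.720), SNX7 (0.607) and CCN1 (0.592). Its correlation with the other 4 members lay between -0.103 and 0.191, whereas among RUNX2, ALPL, IBSP and SP7 the correlations ran from 0.364 to 0.766.

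After each group's mean had been subtracted, the correlations of BGLAP with the other 4 members lay between 0.088 and 0.268, and those among RUNX2, ALPL, IBSP and SP7 between 0.295 and 0.556, so that the gap between BGLAP and the rest was smaller. RUNX2 was then most like SERPINF1 (r = 0.515), TIMP1 (0.509) and IBSP (0.503), IBSP like MMP13 (0.580), MMP9 (0.571) and SP7 (0.556), and SP7 like COL11A1 (0.581), COL9A1 (0.560) and IBSP (0.556). ALPL was most like BMP1 (0.615), CAD (0.614) and LOXL2 (0.612), and BGLAP like HAPLN1, a link protein of cartilage (0.437), PCDHGB1 (0.414) and PTPRG (0.410). IBSP and SP7 are at 0 in many libraries, which limits these values.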

How the data were processed

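RNA of aorta rings and heart valves was extracted from frozen tissue and sequenced from stranded total RNA libraries. Base calls were converted with bcl2fastq 2.20 according to the submitters' processing notes. The authors trimmed, mapped and counted the reads with the nf-core/rnaseq pipeline 1.4.2 on OryCun2.0 and Ensembl release 99, with 3 bases clipped from read 2 and a NextSeq quality trim of 10, and otherwise default settings, those for strand included. The deposited counts are whole read pairs per gene, not normalized and not pooled, in 1 table per plate, and each library was matched to its tissue, treatment and plate by its label. The 5 genes and the 16 gene lists were chosen with earlier results of these data known.

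Counts were tested with edgeR 4.0.16 in R 4.3.3 (filterByExpr, TMM, robust quasi-likelihood test), with 1 model of the 4 treatments in each tissue, 1 model of the 5 tissues on chow, and 1 model of 2 tissues for each difference in response. p-values are two-sided and adjusted by Benjamini-Hochberg over all genes tested. The SE of an edgeR log2 fold change is its absolute value divided by the square root of the F statistic. It follows the test and is not estimated on its own. A gene was called at an adjusted p under 0.05 and a fold change over 1.5, and a difference in response at an adjusted p under 0.05. CPM were set on TMM-scaled library sizes over all libraries. In the median library 1 CPM equals 18.2 read pairs, whose counting SD is 23.4%, and at 10 CPM that SD is 7.40%. Where all libraries of a group had at most 3 read pairs, folds are lower bounds against 3 read pairs per library. Correlations used log2 CPM with a prior count of 2. Scripts were tested on simulated counts.

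Named genes were the 5 members, of each list up to 3 called genes with the smallest p in a comparison, SPP1, MGP, ENPP1, ANKH, SLC20A1, TNFRSF11B, MSX2, SOX9, BMP2 and COL1A1, and the 3 genes most like each member. Other names (SPARC, CALCR, DKK1, KL, AXIN2, COL2A1 and the genes of single libraries) were chosen after their values were seen. One gene that this rule names is not reported here. Rabbits were taken from the number that opens a library's name. Deviations from group means correlated at a median of 0.184 between aorta and aortic valve of the same rabbit and -0.006 between rabbits, and at 0.434 and -0.015 between mitral and aortic valve. Alternatives were DESeq2 1.42.0, DESeq2 size factors in edgeR, no filter, the 2 groups compared alone, the plate as a covariate, each plate alone, the rabbit as a block, other CPM scalings and leaving out each library.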

Additional observations from a re-analysis of the deposited data

Results flagged for a closer look

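Of 81 sets of libraries (1 gene in 1 tissue and treatment) large enough to be tested, 26 held a highest library far from the others, where chance gives about 1 in 20 for values with a normal spread. These CPM are skewed and often 0, and a set in which 1 library alone holds reads stands apart by construction, so that rate does not carry over to them. The Lard aorta library L562 stood apart for all 5 genes, with 17.3 CPM of RUNX2, 23.1 of ALPL, 49.5 of BGLAP, 248.4 of IBSP and 8.64 of SP7. The other aorta libraries that stood apart were L567 in IR/CHT for IBSP (30.4 CPM), and L551 in Ctrl and L561 in CHT for BGLAP (5.82 and 5.42 CPM).

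In the aortic valve these were L265 in CHT for ALPL (8.61 CPM) and SP7 (0.104 CPM), L228 in CHT for BGLAP (37.2 CPM) and L182 in Ctrl for IBSP (0.282 CPM). In the mitral valve they were L266 in CHT for ALPL (5.49 CPM) and L540 in Lard for IBSP (0.738 CPM). In the pulmonary valve, L230 in CHT stood apart for ALPL (2.71 CPM), BGLAP (91.2 CPM) and IBSP (0.371 CPM), and L275 in IR/CHT for ALPL (2.52 CPM) and BGLAP (17.6 CPM). In the tricuspid valve, L172 in CHT stood apart for ALPL (2.12 CPM), L168 in Ctrl and L272 in Lard for BGLAP (9.84 and 6.42 CPM), L243 in Ctrl, L542 in Lard and L177 in IR/CHT for IBSP (0.430, 0.328 and 0.629 CPM), and L185 in Ctrl for SP7 (0.244 CPM). Of these libraries, L168, L275, L272, L228, L266, L172 and L182 had profiles nearer to another valve than to their own, by correlation differences of 0.069, 0.026, 0.023, 0.006, 0.005, 0.001 and 0.001. L272 and the pulmonary valve Lard library of the same rabbit, L271, were each nearer to the other's tissue (0.984 against 0.961 and 0.986 against 0.971), and held 6.42 and 1.04 CPM of BGLAP. Whether their labels were exchanged was not tested.

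The response differed between tissues, by the test of the difference itself, in 6 cases. ALPL in the aortic valve minus the aorta had -3.53 on CHT, -4.22 on Lard and -3.25 in IR/CHT, RUNX2 had -3.85 on Lard and BGLAP -3.11 in IR/CHT, all on the log2 scale. BGLAP in the aortic valve minus the mitral valve had -3.15 in IR/CHT. The tissues came from the same rabbits, and with the rabbit as a block 3 of the 6 were lost, ALPL on CHT (adjusted p = 0.0820), ALPL on Lard (0.121) and RUNX2 on Lard (0.104).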

How the results depend on the processing

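Each rabbit had 1 treatment, so no block was possible within a treatment comparison. Between tissues, the rabbit as a block ended the calls of ALPL on CHT (-2.79), ALPL on Lard (-2.79) and RUNX2 on Lard (-2.90) in the aortic valve minus the aorta, added that of BGLAP between pulmonary and tricuspid valve on chow (2.60), and changed no other call of a gene named there. With only the 2 groups compared, fewer genes passed the filter. Then 0 were called in the Lard aorta against Ctrl (ALPL and BGLAP tested, ALPL 3.36) and against CHT (SP7 not tested, BGLAP 2.72). In the CHT aortic valve 0 were called against Ctrl (IBSP not tested). Against Ctrl in the aorta, 2 were called on CHT (IBSP and SP7 not tested) and 3 in IR/CHT (SP7 not tested). In the irradiated aortic valve 2 were called against Ctrl (IBSP not tested). Without the filter on low counts, ALPL on Lard in the aorta (3.37), IBSP on CHT in the aortic valve (2.96, 0 genes called) and against it in IR/CHT (2.30, 1 gene called), and the ALPL difference on CHT (-3.46) did not pass. IBSP on CHT in the aortic valve was 2.90 with DESeq2 size factors (0 genes called), 2.75 with the plate as a covariate (0 genes) and 1.84 within plate 1 (0 genes), while DESeq2 called 2 genes. With the plate as a covariate the ALPL difference on CHT was -3.55 and its call was lost. Within plate 1, RUNX2 in the irradiated aortic valve was 1.76, IBSP there against CHT 2.32 (1 gene called), RUNX2 in the irradiated mitral valve 1.12 (1 gene called) and BGLAP on CHT in the pulmonary valve -0.30. Within plate 2, the irradiated mitral valve had 0 genes called (RUNX2 1.67, IBSP 4.76). The causes were not tested.

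Leaving out 1 library at a time gave 2 to 5 genes called on Lard in the aorta (RUNX2 2.78 to 4.47, ALPL 1.955 to 3.69), 1 to 2 for Lard against CHT (BGLAP 1.64 to 3.45), 2 to 3 on CHT (ALPL 2.33 to 3.23), 0 to 1 on CHT in the aortic valve (IBSP 2.18 to 6.05) and 1 to 2 for IR/CHT against CHT there (IBSP 2.02 to 3.10). BGLAP in the pulmonary valve in IR/CHT against CHT ran from -2.41 to 0.0033. Without L562, a fit added after the data were seen, the Lard differences between aortic valve and aorta were -2.78 for RUNX2 and -2.81 for ALPL. Depth limits RUNX2, IBSP and SP7, which lay at a few read pairs in many libraries.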
